A study of Homo sapiens with 12 samples.

Results

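Keratins are the intermediate filament proteins of epithelial cells. A filament is built from pairs of a type I (acidic) and a type II (basic) chain, so a cell that makes filaments carries at least a chain of each type. KRT8 and KRT18 form the pair of simple epithelia, whereas KRT16 and KRT17 belong to the keratins that the epidermis makes in wounds and in inflamed skin, usually together with the type II chains KRT6A, KRT6B and KRT6C. Non-epithelial tumour cells, melanoma included, can carry keratin transcripts beside vimentin, the intermediate filament protein of mesenchymal cells.

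The 10 keratins described here are KRT7, KRT8, KRT10, KRT16, KRT17, KRT18, KRT19, KRT34, KRT80 and KRT81, matched by exact gene name among the 58288 genes of the deposited count table. The set was chosen by the level of KRT16, which was higher in the M2 group and lower in the M1 group than in the M0 group. Its values in those contrasts are therefore given as a description, without a test. All 10 were found, 6 of type I and 4 of type II, and 8 passed the filter on low counts. KRT19 and KRT81 did not. The same fit tested 14088 genes.

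RNA was sequenced from MV3 cells, a long-used line grown from a lymph node metastasis of human melanoma. After 3 h in medium with 1% serum, the cells spent 24 h either in fresh RPMI medium, the group called Ctrl, or in macrophage-conditioned medium. The macrophages came from THP-1, a human monocytic leukaemia line. M0 medium came from THP-1 cells differentiated with PMA, M1 medium from such cells further polarized with LPS and IFNγ, and M2 medium from such cells polarized with IL4 and IL13. Each of the 4 groups had 3 libraries. All groups are the same cell line, and a difference from Ctrl includes whatever conditioning by any cell does to medium. The sources used here do not say whether the 3 samples of a group were separate cultures, so p-values measure only how far these samples spread, and that spread may be technical. In bulk RNA, fewer cells with a transcript and less transcript per cell cannot be told apart.

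Library totals ranged from 21788397 to 42921242 reads. The level unit used here is CPM, reads scaled to a library of 1000000. By these raw totals, 3 reads corresponded to between 0.0699 and 0.138 CPM. All other CPM values use library sizes adjusted by TMM factors, which move this limit slightly. Of 11 melanoma markers, AXL, MITF and TNC passed the low-count filter, whereas the pigment cell genes TYR and S100B had no read and SOX10 and MLANA had 1 read each in all 12 libraries. The summed level of that list was 2290 to 2963 CPM in Ctrl, 2284 to 2342 in M0, 1489 to 1609 in M1 and 2377 to 2516 in M2, nearly all of it AXL and TNC. Those pigment cell markers were thus at or near 0 in these cells. None of 10 macrophage markers passed the filter, their summed level lay between 0.25 and 0.845 CPM with the highest values in Ctrl, and MARCO had no read.

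KRT16 lies on chromosome 17 of GRCh38 (41609778-41615899, minus strand), 3.54 kb from KRT17 (41619441-41624842) and 22.9 kb from KRT14 (41582279-41586921), with no other keratin gene in either gap. The coding sequences of these neighbours are alike, those of KRT16 and KRT14 most of all. KRT16 matched KRT14, the type I chain of basal epidermis, at 88.7% of aligned coding bases and KRT17 at 80.9%. Some 50-base reads can therefore be hard to place. The first set below is the 60-base coding stretch with the fewest differences, bases 358 to 417 of KRT16 counted from the A of the start codon, read from GENCODE v29 transcripts. Capitals mark bases that differ from KRT16.
KRT16: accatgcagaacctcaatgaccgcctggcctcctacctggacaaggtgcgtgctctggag
KRT14: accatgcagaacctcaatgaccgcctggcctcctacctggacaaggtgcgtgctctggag
KRT17: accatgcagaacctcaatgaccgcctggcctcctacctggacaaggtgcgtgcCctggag

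The KRT14 stretch was identical to that of KRT16, and the KRT17 stretch differed at 1 base. A read from this part fits KRT16 and KRT14 equally well, and KRT17 can be told apart only by reads over the differing base. The second set is the stretch with the most differences, bases 966 to 1025 of KRT16, where KRT14 and KRT17 each differed at 19 of 60 bases and a read can be placed. Capitals again mark differences from KRT16.
KRT16: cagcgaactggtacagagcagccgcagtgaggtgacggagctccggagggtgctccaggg
KRT14: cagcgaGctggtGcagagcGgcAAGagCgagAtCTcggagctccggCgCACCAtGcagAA
KRT17: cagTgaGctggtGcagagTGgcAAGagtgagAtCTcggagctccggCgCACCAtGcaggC

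Over whole transcripts, 16.5% of the 50-base windows of KRT16 also occurred in the transcripts of another gene on either strand. Of the KRT16 windows, 7.44% occurred in KRT14, 0.661% in KRT17 and 9.18% in the pseudogene KRT16P3. The share found in any other gene was 9.02% for KRT17, 11.4% for KRT34 and 5.7% for KRT7. For KRT8 it was 16.1%, for KRT18 24.5% and for KRT81 43.7%. It was below 1% for KRT10 (0.42%), KRT19 (0.977%) and KRT80 (0.364%). The sources used here give neither the counting tool nor its treatment of such reads, so the values of the genes with shared windows carry that uncertainty.

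**Figure D1:**
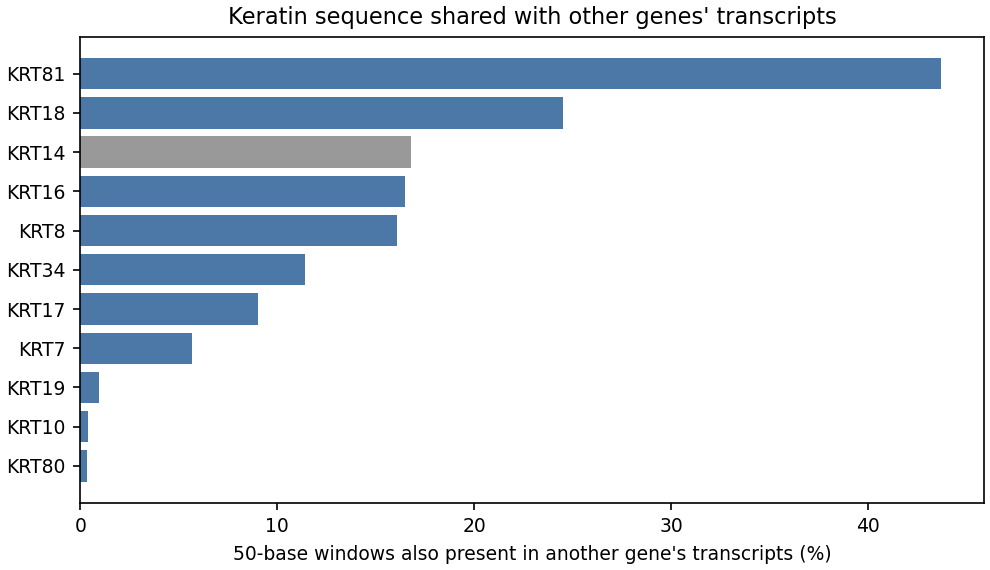
Percent of 50-base windows in each keratin's annotated transcripts that also occur in transcripts of another gene (horizontal axis), for the 10 keratins (blue) and KRT14 (grey). KRT81 shares 43.7% of its windows and KRT16 shares 16.5%, whereas KRT10 and KRT80 share less than 1%.

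KRT16 transcript was close to the limit of these libraries in fresh medium and was higher in every conditioned medium. The 3 Ctrl libraries held 10, 6 and 6 KRT16 reads, or 0.228, 0.201 and 0.188 CPM. The M0 libraries held 5.13, 7.4 and 4.1 CPM, the M1 libraries 1.24, 0.64 and 1.04 CPM, and the M2 libraries 11.4, 10.9 and 12.7 CPM. No library of any group overlapped with a library of another group, and the groups were ordered Ctrl, M1, M0 and M2.

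**Figure D2:**
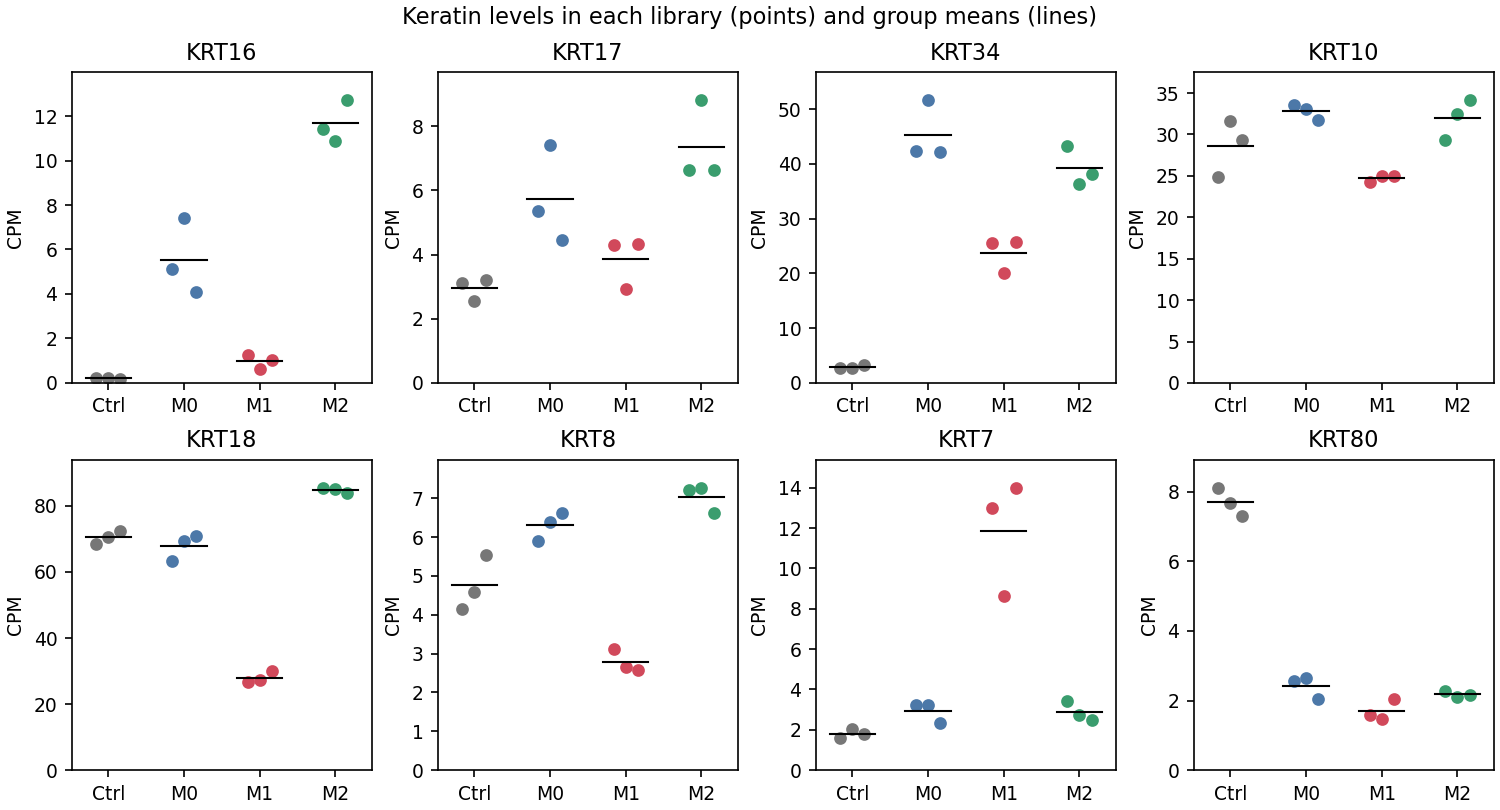
Level in CPM (vertical axes, each starting at 0) of the 8 keratins that passed the low-count filter, by medium (horizontal axes), with a point for each of the 3 libraries per group and a line at the group mean. KRT16 lies at 0.188 to 0.228 CPM in Ctrl and at 10.9 to 12.7 CPM in M2, KRT7 is highest in M1, and KRT80 is highest in Ctrl.

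The contrasts that chose KRT16 are described first. Its mean was 5.54 ± 1.69 CPM in M0 (SD, n = 3), 0.973 ± 0.306 CPM in M1 and 11.7 ± 0.894 CPM in M2. M1 was 5.53-fold lower than M0, a log2 difference of -2.47 ± 0.36 (SE). M2 was 2.13-fold higher than M0, a log2 difference of 1.09 ± 0.25. M1 was thus 11.8-fold lower than M2, a log2 difference of -3.55 ± 0.27. The M1 and M2 differences share the M0 libraries, whose own spread, from 4.1 to 7.4 CPM, was the widest in CPM of any group.

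Against Ctrl, a contrast outside the choice of KRT16 although it uses the same M0, M1 and M2 libraries, KRT16 rose in all 3 conditioned media. It rose 25.9-fold in M0 (log2 fold change 4.70 ± 0.25 SE, adjusted p = 3.12e-09 by edgeR's quasi-likelihood test with Benjamini-Hochberg adjustment over all genes tested). In M1 it rose 4.69-fold (2.23 ± 0.27, edgeR adjusted p = 6.21e-05), so the M1 level, although below M0, was still above fresh medium. In M2 it rose 55.1-fold (5.78 ± 0.09, edgeR adjusted p = 1.23e-10). These folds rest on the few Ctrl reads given above. The SEs are from log2 CPM with a prior count of 2, which damps the spread of low counts. They may therefore understate the counting error of those Ctrl reads. KRT16 passed the low-count filter only through the conditioned media, and the same M0, M1 and M2 libraries chose it, so these p-values are not independent support for its change. The KRT16 pseudogenes, 6 in the table, held 15 reads in all against 1640 for KRT16 itself.

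KRT14, which shares the most coding sequence with KRT16 and is not among the 10, differed from it in the place of Ctrl. Among M1, M0 and M2 it followed the same order as KRT16. Its Ctrl libraries held 42.9, 38 and 40.7 CPM, M0 28.1, 29.6 and 18.3, M1 14.6, 5.82 and 12.7, and M2 47.1, 39.6 and 41.7. Ctrl and M2 overlapped for KRT14, while KRT16 differed 55.1-fold between the same libraries. KRT14 fell by 0.68 on the log2 scale in M0 (edgeR adjusted p = 0.015) and by 1.86 in M1 (edgeR adjusted p = 3.12e-06), and its M2 difference of 0.08 did not pass the test (adjusted p = 0.759, edgeR). Against M0, KRT14 was lower in M1 by a log2 difference of -1.18 (edgeR adjusted p = 0.000655) and higher in M2 by 0.76 (edgeR adjusted p = 0.0221). Neither group overlapped with M0, so KRT14 too stood on opposite sides of M0 in the polarized media.

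KRT17, the type I stress keratin beside KRT16, moved less. The Ctrl libraries of KRT17 held 3.11, 2.55 and 3.22 CPM, M0 5.36, 7.4 and 4.45, M1 4.29, 2.94 and 4.34, and M2 6.62, 8.8 and 6.62. All M0 and all M2 libraries lay above Ctrl, while M1 overlapped with Ctrl. KRT17 rose by a log2 fold change of 0.94 ± 0.24 in M0 (edgeR adjusted p = 0.000925) and 1.30 ± 0.17 in M2 (edgeR adjusted p = 3.01e-05). The M1 difference, 0.38 ± 0.21, did not pass (edgeR adjusted p = 0.104), and without M1 replicate 2 it was 0.55 and passed (edgeR adjusted p = 0.0289). Against M0 the log2 differences were -0.55 in M1 and 0.37 in M2, both of the sign seen for KRT16 and smaller in size. Leaving out a single library moved the M1 value to between -0.70 and -0.33 and the M2 value to between 0.21 and 0.58, the values nearest 0 coming without M0 replicate 2 and without M0 replicate 3. With M0 replicate 3 and M2 replicate 2 left out together, the M2 value was 0.063. Per length, the ratio of the KRT16 level to the KRT17 level was 0.0888 ± 0.0136 for Ctrl (SD, n = 3), 1.21 ± 0.0499 for M0, 0.315 ± 0.0471 for M1 and 2.06 ± 0.438 for M2. The difference between the 2 genes' responses was not tested.

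The type II partners of these stress keratins in epidermis were not detected. Sequence shared among them was not examined, and reads that fit several genes may have been left uncounted. KRT6A, KRT6B and KRT6C had no read in any of the 12 libraries, so of the 5 stress keratins only KRT16 and KRT17 were measurable. KRT16 and KRT17 both rose in M0 and M2, where 31.1% and 34.1% of all tested genes were higher. KRT16 rose in M1, where 35.2% were. The same libraries chose KRT16, and it passed the filter only through the conditioned media, so its rises are not independent support.

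KRT34, a type I hair keratin on the same chromosome (17, 41377650-41382403, minus strand), showed the next largest change against Ctrl after KRT16 among the 8 tested keratins of the set in M0 and in M2. Its Ctrl libraries held 2.65, 2.78 and 3.22 CPM, M0 42.3, 51.6 and 42.1, M1 25.5, 20.1 and 25.7, and M2 43.3, 36.3 and 38.1. All conditioned libraries lay far above Ctrl, M1 lay below M0 and M2, and M0 overlapped with M2. The fold was 15.8 in M0 (log2 3.98 ± 0.13, edgeR adjusted p = 1.69e-12), 8.28 in M1 (3.05 ± 0.14, edgeR adjusted p = 2.32e-11) and 13.7 in M2 (3.77 ± 0.11, edgeR adjusted p = 2.95e-12). Against M0, KRT34 was lower in M1, by a log2 difference of -0.93, as KRT16 was, but its M2 difference was -0.21.

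The hair keratin gene KRT33B next to KRT34 also rose against Ctrl. KRT33B, 7.85 kb away and sharing 6.64% of the KRT34 windows, had means of 0.631, 4.49, 4.3 and 4.86 CPM in Ctrl, M0, M1 and M2. Its log2 fold changes against Ctrl were 2.80, 2.76 and 2.93 (edgeR adjusted p = 1.78e-07, 9.49e-08 and 6.6e-08). KRT31, 11.3 kb from KRT34, had 2 reads over the 3 Ctrl libraries and 17, 24 and 34 reads over the M0, M1 and M2 libraries. It entered the test only through the groups where it was high, so no test is given for it.

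Promoter sequence, 250 bases before the annotated start in RefSeq (GRCh38.p14), was at hand for KRT34, KRT8 and KRT10. It is shown for KRT34, whose transcript rose most among these 3, and for KRT10, whose level moved little. Motifs were searched on both strands as letters: TTCNNNGAA (the GAS type bound by STAT factors), TTC and GAA with 4 bases between them (the type preferred by STAT6), TGANTCA (AP-1), TGACNNNGC (antioxidant response) and GAAA followed by GAAA with 2 bases between them (interferon response). The AP-1 and antioxidant letters can overlap. Capitals in KRT10 mark its only match, of the interferon response type on the opposite strand, which starts at position -209.
KRT34 promoter, chr17:41382307-41382556, minus strand: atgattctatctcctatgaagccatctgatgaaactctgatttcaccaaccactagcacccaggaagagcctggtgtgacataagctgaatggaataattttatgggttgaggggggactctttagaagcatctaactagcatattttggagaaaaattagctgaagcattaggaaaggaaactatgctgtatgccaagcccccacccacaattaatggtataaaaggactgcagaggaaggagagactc
KRT10 promoter, chr17:40822615-40822864, minus strand: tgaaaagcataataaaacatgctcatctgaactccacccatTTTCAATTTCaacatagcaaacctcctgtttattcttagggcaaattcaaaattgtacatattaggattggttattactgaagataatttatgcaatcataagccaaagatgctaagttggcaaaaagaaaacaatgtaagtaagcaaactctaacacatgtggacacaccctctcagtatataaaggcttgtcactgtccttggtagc

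KRT34 and KRT8 held none of the 5 motifs in this window, which says only that these letters are not there. The RefSeq starts differ from the GENCODE gene positions given elsewhere here. The KRT34 window overlaps the GENCODE gene (41377650-41382403). The KRT8 window (chromosome 12, 52926470-52926719) lies inside the GENCODE gene span (52897187-52949954). Of 35116 promoters, 6.57% held the GAS letters, 5.38% the STAT6 type, 6.57% AP-1, 10.9% the antioxidant letters and 3.02% the interferon letters.

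Against Ctrl, the simple epithelial pair KRT18 and KRT8 was lower in M1 medium and slightly higher in M2 medium, and KRT8 was also higher in M0 medium. KRT18 (chromosome 12, 52948871-52952901, plus strand), the type I chain, held 68.6, 70.7 and 72.4 CPM in its Ctrl libraries, while M0 held 63.2, 69.4 and 70.9, M1 26.7, 27.4 and 29.9, and M2 85.5, 85 and 84. M1 lay below and M2 above every other library, and Ctrl overlapped with M0. KRT18 fell by 1.33 ± 0.054 on the log2 scale in M1 (edgeR adjusted p = 8.27e-11) and rose by 0.27 ± 0.023 in M2 (edgeR adjusted p = 0.00162). The M0 difference of -0.057 ± 0.055 did not pass (edgeR adjusted p = 0.451). Against M0 the log2 differences were -1.28 in M1 and 0.32 in M2, so KRT18 too stood on opposite sides of M0 in the polarized media.

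KRT8 (chromosome 12, 52897187-52949954, minus strand), the type II partner, overlaps the KRT18 gene on the opposite strand. KRT8 stood at 4.16, 4.59 and 5.53 CPM in its Ctrl libraries, while M0 stood at 5.9, 6.38 and 6.62, M1 at 3.12, 2.66 and 2.59, and M2 at 7.21, 7.27 and 6.62. M1 lay below every other library and Ctrl below M0 and M2. KRT8 rose by a log2 fold change of 0.41 ± 0.13 in M0 (edgeR adjusted p = 0.0126) and 0.57 ± 0.13 in M2 (edgeR adjusted p = 0.00101), and fell by 0.76 ± 0.15 in M1 (edgeR adjusted p = 0.000121). Without Ctrl replicate 1 the M0 difference was 0.31 and no longer passed (edgeR adjusted p = 0.055). It was 0.37 with M0 replicate 3 and M2 replicate 2 left out together (edgeR adjusted p = 0.0564). Against M0, the KRT8 log2 differences were -1.17 in M1 and 0.16 in M2, whose libraries overlapped with those of M0.

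Some KRT8 calls changed when reads assigned to its pseudogenes were added to KRT8. The 50 KRT8 pseudogenes in the table held 6765 reads against 1954 for KRT8, and KRT8P12 alone held 93.2% of them. Only 0.0556% of the 50-base windows of KRT8 occurred in KRT8P12, so most reads of these genes can be told apart. Adding them therefore mostly adds the level of a distinct transcript. KRT8P12, annotated as a transcribed pseudogene, rose from 13 ± 0.15 CPM in Ctrl to 16.9 ± 0.47 in M0, 17.7 ± 0.263 in M1 and 18.2 ± 0.633 in M2 (SD, n = 3; edgeR adjusted p = 0.000346, 4.83e-05 and 2.68e-05). With the pseudogene reads added to KRT8, its M1 difference from Ctrl became 0.26 (edgeR adjusted p = 0.00296), the opposite sign, and the M1 difference from M0 shrank to -0.12 and was no longer called. For KRT18, 68 pseudogenes held 287 reads against 23718, and for KRT17, 8 held 5 reads against 1857.

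KRT7, a type II chain of simple and glandular epithelia, was highest in M1 medium, and it stood above M0 there while KRT16 stood below M0. Its Ctrl libraries held 1.58, 2.04 and 1.78 CPM, M0 3.21, 3.21 and 2.35, M1 13, 8.64 and 14, and M2 3.42, 2.73 and 2.5. M1 lay far above all other libraries, and M0 overlapped with M2. KRT7 rose 6.66-fold in M1 (log2 2.74 ± 0.24, edgeR adjusted p = 7.04e-09). It also rose by 0.70 ± 0.18 in M0 (edgeR adjusted p = 0.0121) and by 0.70 ± 0.17 in M2 (edgeR adjusted p = 0.0099). The M0 call was lost without Ctrl replicate 1 or M0 replicate 1 (edgeR adjusted p = 0.0602 and 0.0521), and the M2 call without Ctrl replicate 1 or M2 replicate 1 (edgeR adjusted p = 0.0512 and 0.0596). Against M0 its log2 difference was 2.03 in M1 and -0.0026 in M2, so it differed from M0 in M1 medium alone by more than its SE. The antisense gene KRT7-AS, which covers part of KRT7 on the opposite strand, had 4 reads in all libraries against 1987 for KRT7.

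**Figure D3:**
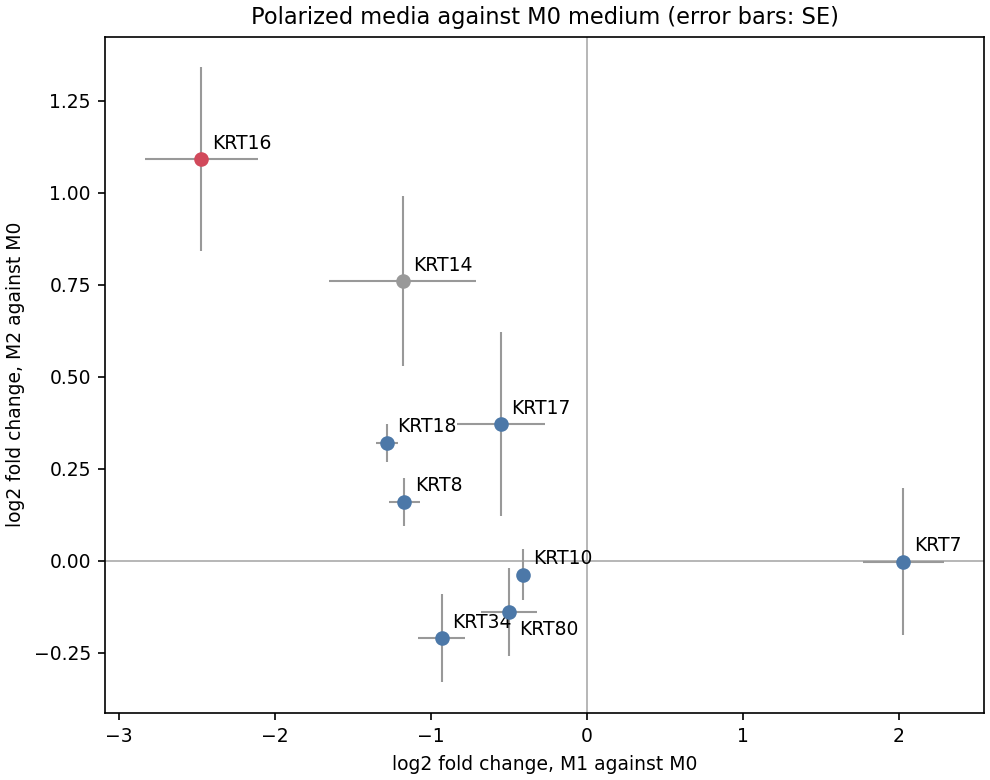
Log2 fold change of M1 against M0 (horizontal axis) and of M2 against M0 (vertical axis) for the 8 measurable keratins (KRT16 in red, others in blue) and KRT14 (grey), with bars for the SE over libraries. KRT16 lies farthest to the upper left at -2.47 and 1.09, KRT7 lies at the right at 2.03, and both axes share the M0 libraries.

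KRT80 (chromosome 12, 52168996-52192000, minus strand), a type II keratin found in many epithelia, was the only one of the 8 tested that fell in every conditioned medium. Its Ctrl libraries held 8.11, 7.67 and 7.29 CPM, M0 2.56, 2.65 and 2.03, M1 1.57, 1.47 and 2.05, and M2 2.28, 2.09 and 2.15. Ctrl stood clear of all other libraries, while the conditioned media overlapped except for M1 and M2. KRT80 fell by 1.68 ± 0.13 on the log2 scale in M0 (edgeR adjusted p = 1.04e-07), 2.17 ± 0.15 in M1 (edgeR adjusted p = 3.12e-09) and 1.82 ± 0.057 in M2 (edgeR adjusted p = 2.88e-08).

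KRT10, the type I chain of suprabasal epidermis, was among the most abundant of the 10 and moved little. The Ctrl libraries of KRT10 held 24.9, 31.6 and 29.3 CPM, M0 33.6, 33.1 and 31.7, M1 24.3, 25 and 25, and M2 29.3, 32.5 and 34.1. The Ctrl libraries spanned most of this range and overlapped with M1 and M2. KRT10 passed the test in M1 alone, where it fell by 0.21 ± 0.10 (edgeR adjusted p = 0.0463), and that call was lost in several alternatives, among them without Ctrl replicate 2 (log2 -0.13, edgeR adjusted p = 0.229). Without Ctrl replicate 2 it passed in M0 (0.28, edgeR adjusted p = 0.02) and in M2 (0.24, edgeR adjusted p = 0.0364). TMEM99, on the opposite strand, held 6.82 to 12.4 CPM over the 12 libraries.

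KRT19 and KRT81 were too low for the test. KRT19, a type I chain of simple epithelia, had 3, 1 and 2 reads in Ctrl, none in M0 or M1, and 2, 0 and 0 in M2. KRT81, a type II hair keratin, had 13, 11 and 7 reads in the Ctrl libraries, whereas M0 had 2, 4 and 3, M1 had 4, 1 and 7, and M2 had 2, 2 and 6. The KRT81 level in M0 was 0.366 of that in Ctrl (95% exact interval 0.153 to 0.788), in M1 0.36 (0.168 to 0.72) and in M2 0.357 (0.156 to 0.747), where the intervals cover counting error only. KRT86, the hair keratin with which KRT81 shares 37.6% of its windows, had 7, 8, 31 and 6 reads over the Ctrl, M0, M1 and M2 libraries.

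Read together against Ctrl, 6 of the 8 tested keratins passed in M0, with 5 higher (KRT7, KRT8, KRT16, KRT17, KRT34) and KRT80 lower, where 61.7% of all tested genes passed. In M1, 7 of 8 passed, with 3 higher (KRT7, KRT16, KRT34) and 4 lower (KRT8, KRT10, KRT18, KRT80), against 70.2% of all genes. In M2, 7 of 8 passed, with 6 higher (those of M0 and KRT18) and KRT80 lower, against 66.5%. With so many genes changed, such counts are near the background. By direction, 31.1% of all genes were higher and 30.6% lower in M0, M1 had 35.2% higher and 35% lower, and M2 had 34.1% higher and 32.4% lower. The median log2 fold change of the tested keratins was 0.56 in M0, 0.089 in M1 and 0.64 in M2, beside 0.004, -0.0038 and 0.021 over all genes. These 8 include KRT16, which passed the filter only through the conditioned media, where it was high, and was chosen by the same libraries. Its calls in these counts are therefore not independent support, and its values also enter the medians.

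**Figure D4:**
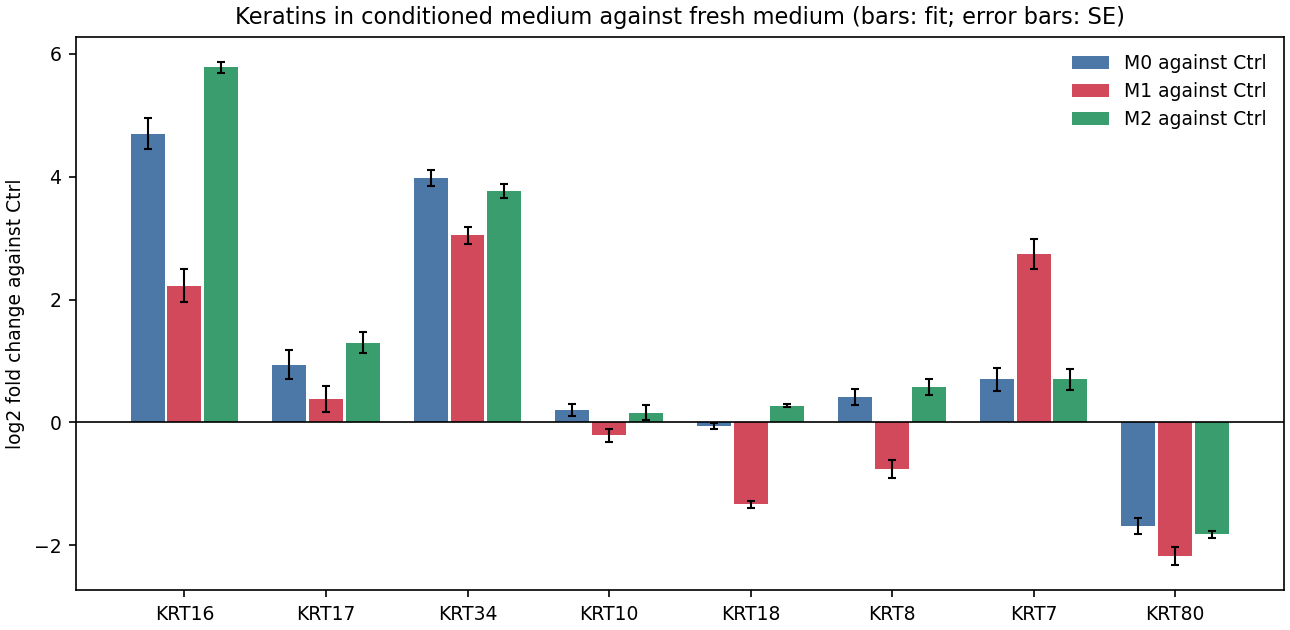
Log2 fold change against fresh medium (vertical axis) of the 8 measurable keratins (horizontal axis) in M0, M1 and M2 medium, with the SE over 3 and 3 libraries. For KRT16 this SE may understate the counting error of its few Ctrl reads. KRT16 and KRT34 rose in all 3 media, KRT7 rose most in M1 at 2.74, KRT18 and KRT8 fell in M1, and KRT80 fell in all 3.

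Among the polarized media, which include the contrasts behind the choice of KRT16, the calls of the other 7 keratins are given only beside the background. In M1 against M0, 7 of 7 passed (KRT7 higher, 6 lower), where 52.2% of all genes did, 25.5% higher and 26.7% lower. The calls of KRT17 and KRT80 were lost without M0 replicate 2, without M1 replicate 2 and in a fit of only the groups compared, and KRT80 also without M0 replicate 1, without M1 replicate 1 and with no low-count filter. The KRT8 call was lost with pseudogene reads added. In M2 against M0, KRT18 alone passed, as higher, where 25.2% did, 12.5% higher and 12.7% lower. That share depends on the libraries used: 3553 genes passed in the main fit and 1601 to 3911 with a single library left out. With M0 replicate 3 and M2 replicate 2 left out together, 536 passed. KRT18 passed in each of these fits. Without M0 replicate 2, KRT17 passed as well. In M1 against M2, 6 of 7 passed (KRT7 higher, KRT8, KRT10, KRT17, KRT18 and KRT34 lower, KRT80 not called), where 32.5% did, 15.9% higher and 16.6% lower.

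Levels of the 10 keratins were compared with each other per kb of annotated exon. In Ctrl, KRT18 led at 21.9 ± 0.579 CPM per kb (SD, n = 3), followed by KRT10 at 13.4 ± 1.6, then KRT80 at 1.77 and KRT34 at 1.65, which overlapped. KRT16 was the ninth of the 10 at 0.0831 ± 0.00839. For M0, KRT34 led at 25.9 ± 3.1, ahead of KRT18 at 21.1 and KRT10 at 15.3, and KRT16 was the fourth at 2.24 ± 0.683, overlapping with KRT17 at 1.83. In M1, KRT34 at 13.6 overlapped with KRT10 at 11.5, KRT18 followed at 8.7 and KRT7 at 2.9, and KRT16 at 0.393 overlapped with KRT8 and KRT80. In M2, the order was KRT18 at 26.4, KRT34 at 22.4, KRT10 at 14.9 and KRT16 at 4.71 ± 0.361, with no overlap among these 4.

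The mix of chains shifted with these levels. The 10 keratins summed to 41 ± 2.12 CPM per kb for Ctrl, 68.6 ± 4.91 for M0, 39.2 ± 3.15 for M1 and 73 ± 1.2 for M2 (SD, n = 3). The type I chain KRT14 is outside the 10, so the sums, shares and ratio here leave it out. Its own level was 17.8 ± 1.06 CPM per kb for Ctrl, 11.1 ± 2.7 for M0, 4.84 ± 2.03 for M1 and 18.8 ± 1.71 for M2. With KRT14 counted, Ctrl and M1 would not be near equal. KRT34 made up 4.01% ± 0.317 of the Ctrl sum, 37.7% ± 1.77 of the M0 sum, 34.5% ± 2.15 of the M1 sum and 30.7% ± 2.37 of the M2 sum. KRT18 made up 53.5% ± 1.71, 30.8% ± 2.29, 22.3% ± 1.57 and 36.1% ± 0.6, in the same order of groups. KRT16 never exceeded a small part, with means of 0.204%, 3.23%, 0.993% and 6.46%. The type I chains exceeded the type II chains by a ratio of 12.4 ± 0.557 for Ctrl, 29.6 ± 1.57 for M0, 9.67 ± 1.61 for M1 and 31 ± 1.57 for M2. KRT8 has long annotated transcripts, with 6881 exon bases, so its level per kb is low for its reads and the ratio depends on that annotation.

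**Figure D5:**
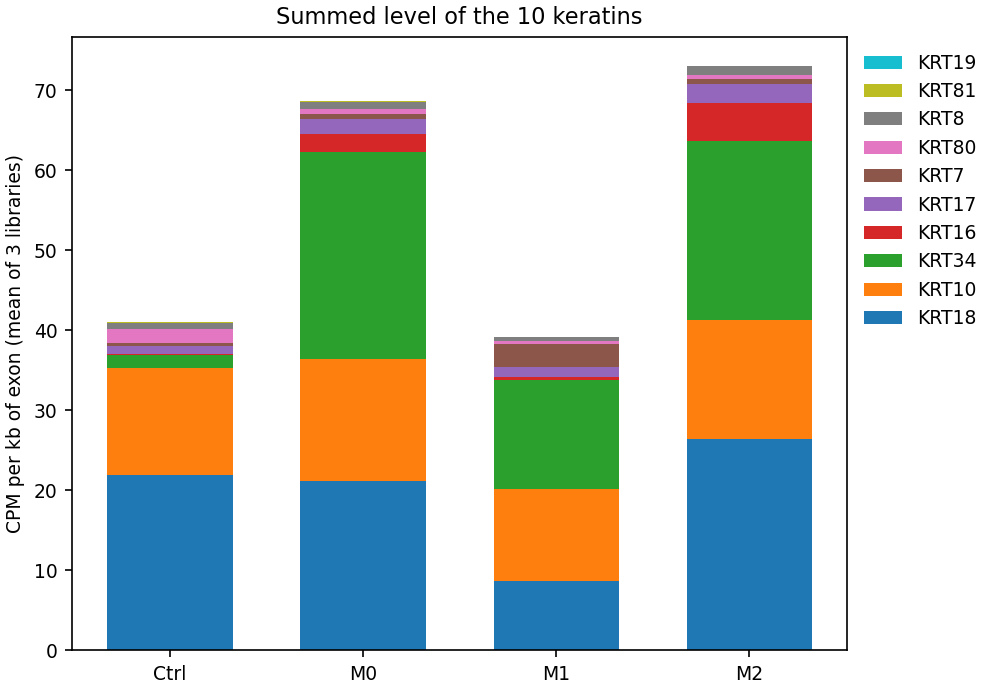
Stacked mean levels of the 10 keratins in CPM per kb of exon (vertical axis) by medium (horizontal axis), each the mean of 3 libraries. The sum is 41 in Ctrl and 39.2 in M1 but 68.6 in M0 and 73 in M2, and KRT34 (green) is small only in Ctrl. KRT14, which is outside the 10, is not in the sum.

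Within groups, the same libraries tended to lie at the edge. M0 replicate 2 was the highest M0 library for 5 of the 8 keratins (KRT7, KRT16, KRT17, KRT34, KRT80) and M0 replicate 3 the lowest for 6. M1 replicate 2 was the lowest M1 library for 5 (KRT7, KRT16, KRT17, KRT34, KRT80) and the highest for none. Leaving out each library of the compared groups in turn kept the KRT16 log2 difference of M1 from M0 between -2.68 and -2.21 and that of M2 from M0 between 0.91 and 1.34. With M0 replicate 3 and M2 replicate 2 left out together, these were -2.64 and 0.95.

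The table held 45 further keratin genes, of which 15 had no read, 27 had 1 to 100 reads and 3 had more. Of these, 5 passed the filter: KRT14, KRT33B and KRT31, given above, and KRT15 and KRT9. KRT15, a type I chain of basal epidermis, had means of 1.6, 0.811, 0.781 and 0.846 CPM in Ctrl, M0, M1 and M2, and fell in all 3 media (edgeR adjusted p = 0.00307, 0.0013 and 0.00313). KRT9, a type I chain of palm and sole epidermis, had 47 reads over the Ctrl libraries and 3, 5 and 19 over M0, M1 and M2. It entered the test only through Ctrl, where it was high, so no test is given for it.

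Among the other intermediate filament genes, vimentin (VIM) was far more abundant than any keratin. It stood at 6303, 7038, 9750 and 7312 CPM in Ctrl, M0, M1 and M2. VIM rose in all 3 media, by log2 fold changes of 0.16, 0.63 and 0.21 (edgeR adjusted p = 0.0389, 2.86e-07 and 0.00718), and was highest in M1, where KRT18 was lowest. Of 14 listed genes 8 passed the filter, and INA, NEFL, NEFM and NEFH had no read. In M0, 1 rose and 5 fell, where 31.1% of all genes were higher and 30.6% lower, with LMNB1 (nuclear lamin B1) falling by 1.72 and SYNM (synemin) by 1.66 on the log2 scale, and the list median was -0.59. In M1, 2 rose and 4 fell, where the shares of all genes were 35.2% and 35%, with a median of -0.78, led downward by LMNB1 at -2.46 and LMNB2 at -1.40. In M2, 3 rose and 4 fell, where the shares were 34.1% and 32.4%, with a median of -0.52, led downward by LMNB1 at -2.30 and NES (nestin) at -1.13. PRPH (peripherin), counted among those that rose in M1 and M2, reached only 0.433 CPM in M2 and passed the filter through that group.

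Of 18 listed genes that anchor or organize keratin filaments, 8 passed the filter. In M0, 1 rose (FAM83H, which organizes keratin filaments, log2 0.56) and 4 fell, among them ITGA6, the integrin alpha 6 chain of hemidesmosomes, by 0.62 and DST, a plakin linker, by 0.44. Over all genes 31.1% were higher and 30.6% lower there. In M1, where 35.2% and 35% were, FAM83H rose by 0.32 and 6 fell, led by ITGA6 with 2.02 and the desmosomal plakophilin PKP3 with 0.81, and the list median was -0.58. In M2, where 34.1% and 32.4% were, FAM83H rose by 0.55 and 3 fell, led by ITGA6 with 1.11 and PKP4 with 0.46. The medians in M0 and M2 were -0.30 and -0.082.

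Epithelial identity genes stayed low. Of 14 listed epithelial and keratinocyte markers, 4 passed the filter (CLDN4, ESRP1, ESRP2, TP63), and EPCAM, SPRR1B and S100A8 had no read. Their summed level was 1.47 to 1.74 CPM in Ctrl, 3.61 to 4.28 in M0, 2.99 to 3.44 in M1 and 3.93 to 4.29 in M2. Most of the difference was ESRP1, an epithelial splicing regulator, with means of 0.0299, 2.09, 1.32 and 2.42 CPM in Ctrl, M0, M1 and M2. ESRP1 entered the test only through the conditioned media, where it was high, so no test is given for it. TP63, a transcription factor of basal epidermis, fell in M2 from 0.849 to 0.439 CPM (edgeR adjusted p = 0.0132). CLDN4 did not pass against Ctrl in any medium. ESRP2 had means of 0.187, 0.138, 0.37 and 0.373 CPM in Ctrl, M0, M1 and M2, and all M1 and M2 libraries lay above Ctrl. ESRP2 entered the test only through M1 and M2, where it was high, so no test is given for it either. The summed level, through ESRP1, was higher in the media where KRT16 and KRT34 were higher than in Ctrl, and its part in the keratin results was not tested.

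The genes whose pattern over the 12 libraries was most like that of KRT16 were ranked by the root mean square difference of centred log2 CPM, over 11884 genes with a mean of at least 1 CPM. The nearest was the long non-coding RNA LINC01133 at 0.627, with means of 0.0584, 2.01, 0.823 and 5.02 CPM in Ctrl, M0, M1 and M2. KIF26B, a kinesin family gene, followed at 0.878 (1.06, 12.5, 6.63 and 16.2 CPM). RELN, which encodes the secreted protein reelin, stood at 1.03 (0.545, 4.06, 1.27 and 4.03 CPM), KRT34 was the fourth at 1.03, and ESRP1 the fifth at 1.05. Among keratins, KRT33B ranked 48, KRT17 302, KRT8 1075 and KRT14 5948, and the median gene differed by 2.14. The likeness is a description and was not tested.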

How the data were processed

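RNA was isolated with RNeasy columns, and libraries were made with the TruSeq Stranded mRNA kit and sequenced as 50-base single reads, per the labels' protocols. Per the submitters' processing notes, STAR 2.5.4b, Bowtie2 2.2.3, Trimmomatic 0.36, FastQC 0.11.7, DESeq2 1.20.0 and R (3.3.3 and 3.5.0) were used with hg38, with no roles stated. The sources used here give no counting tool, strand setting or annotation release. The deposited table holds raw read counts per gene, and each of 12 deposited per-sample files equalled its column. A further deposited table holds variance-stabilized log2 values, used here for gene names and for an alternative test.

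Counts were fitted with edgeR 4.0.16 (R 4.3.3): all 12 libraries in a fit of group means, TMM factors, filterByExpr (minimum count 10, minimum total 15), the quasi-likelihood F test and Benjamini-Hochberg adjustment over 14088 genes, called below 0.05. CPM used TMM library sizes, and log2 CPM a prior count of 2. SEs are from log2 CPM of the 3 and 3 libraries. Before TMM scaling, the smallest library gives 3 reads at 0.138 CPM. Alternatives used DESeq2 1.42.0, limma 3.58.1 on the log2 values, other scaling, no filter, only the groups compared, a replicate block, added pseudogene reads and leaving out libraries. Coordinates, exon lengths and shared windows come from GENCODE v29 (GRCh38).

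Keratins and gene lists were chosen with earlier results of these data known. All 10 keratins are named. Lists of more than 6 tested genes are shown by the extremes of the log2 fold change, and likeness to KRT16 by the 5 nearest genes. KRT86, KRT7-AS and TMEM99 were named outside this rule, for shared or overlapping sequence. No replicate pair was identical: chi-square per degree of freedom between replicates was 3.08 to 27.6.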

Additional observations from a re-analysis of the deposited data

How the results depend on the processing

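Over 45 keratin results and 622 values from alternatives, 586 kept their direction and their side of the threshold, 24 lost the call, 6 gained it and 6 changed sign. A called value changed sign for KRT8 in M1 against Ctrl, 0.26 with pseudogene reads added. The others, none called, were in M2 against M0: leaving out a library in turn moved KRT7 (-0.0026) to between -0.15 and 0.087, with 0.079, 0.066, 0.037 and 0.087 above 0, and KRT10 (-0.038) to between -0.087 and 0.021. Limma on the variance-stabilized values gave smaller KRT16 changes against Ctrl. They were 3.15 in M0, 1.15 in M1 and 4.18 in M2 on the log2 scale, where the main fit gave 4.70, 2.23 and 5.78. The KRT16 log2 difference between M1 and M2 was -3.03 with limma, and the cause was not tested. Leaving out a library in turn gave 4 to 7 keratins called in M0 against Ctrl, 6 to 7 in M1, 6 to 8 in M2, 5 to 7 in M1 against M0, 1 to 2 in M2 against M0 and 6 to 7 in M1 against M2, and KRT16 differences of -2.68 to -2.21 (M1 from M0), 0.91 to 1.34 (M2 from M0) and -3.76 to -3.34 (M1 from M2). Samples share replicate numbers across groups, but same-numbered samples deviated together with correlations of only -0.0775 to 0.154, so the numbers were not taken as pairs. With a replicate block, 7 keratins were called in M0 against Ctrl (KRT10 was added) and the other counts stayed at 7, 7, 7, 1 and 6. Depth limits KRT19, KRT81 and the Ctrl level of KRT16.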
